A study of Mus musculus with 21 samples.

Results

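The 10 genes described here mark endothelial cells, the cells that line blood vessels, in mouse liver and liver tumours. Stab1, Stab2, Clec4g and Lyve1 mark the endothelium of the liver sinusoids, and Pecam1, Cdh5, Kdr, Emcn, Vwf and Plvap mark vessels more widely. They were chosen by name as the array probes that carry these gene symbols, which gave 15 probes for the 10 genes among 23736 genes tested. RNA was read on 21 single-channel Agilent arrays, 1 per sample. The KO tumours (6 tumours of 5 mice) arose in untreated Trp53 ko mice and carry the tissue label hepatocellular carcinoma (HCC)/cholangiocellular carcinoma (CCC). The DEN tumours (7 tumours of 5 mice), labelled HCC, came from Trp53 wt mice given the liver carcinogen N-nitrosodiethylamine (DEN, i.p., 10 µg per g body weight) at day 15. KO livers (4 untreated Trp53 ko mice) and WT livers (4 untreated Trp53 wt mice) served as the comparisons, and all groups had the C57BL/6J background. The sources used here do not give age, sex, or the cells and exons in which Trp53 was deleted.

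The capillaries of the liver are sinusoids, whose endothelial cells carry open fenestrae, lack an ordinary basement membrane and clear macromolecules from the blood through scavenger receptors. Stab1 and Stab2 encode 2 such receptors (the stabilins), Clec4g encodes the lectin LSECtin, and Lyve1 encodes a hyaluronan receptor that lymphatic endothelium also carries. When liver capillaries lose these traits and take on those of common vessels, the process is called capillarization. Pecam1 (CD31) and Cdh5 (VE-cadherin) encode junction proteins, Kdr encodes the receptor VEGFR2, Emcn encodes the surface sialomucin endomucin, Vwf encodes the clotting glycoprotein von Willebrand factor, and Plvap encodes the protein of the diaphragms that span fenestrae and caveolae.

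Levels are given per mouse as the log2 intensity minus that of the array's 75th percentile, with mice numbered within their group and tumours of 1 mouse averaged. A level is set only against the same gene in other samples. The arrays' 75th percentile of intensity lay between 951.5 and 4258 for KO tumours, between 511.8 and 884 for DEN tumours, between 499.6 and 684.9 for KO livers and between 475.8 and 728.9 for WT livers. The 3 brightest arrays, with KO tumours 4 to 6 of mice 4 and 5, shared a slide. Each slide held 1 group. KO livers and WT livers each lay on a single slide, and KO tumours and DEN tumours each on 2, so slide and group cannot be told apart in any comparison except through the spread between slides of a tumour group. The WT livers also had a scan day of their own. Arrays of 1 group correlated at 0.924 or more. Trp53 was lower in the knockout groups (limma adjusted p = 2.2e-05 for tumours and 0.0013 for livers), at -4.71 ± 0.47 in KO tumours and -2.65 ± 0.11 in DEN tumours (SD, n = 5 each), and at -5.57 ± 0.75 in KO livers and -3.57 ± 0.26 in WT livers (n = 4 each). Its probe was above background on 5 of the 6 KO tumour and 1 of the 4 KO liver arrays. The 6 hepatocyte markers were all above background in every group, with mean levels between 2.20 and 5.14 in KO tumour mice, 6.95 and 7.34 in DEN tumour mice, 7.51 and 7.62 in KO livers, and 7.28 and 7.52 in WT livers. The probe used for each of the 10 genes was well above background on all 21 arrays. In build mm9, as the array files give it, these probes lie at chr8:3716182-3716241 for Clec4g, chr10:86303982-86304041 for Stab2, chr14:31952288-31952347 for Stab1, chr3:137086389-137086448 for Emcn and chr5:76330395-76330454 for Kdr.

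KO tumours were set against KO livers to ask what differs between a tumour and liver of the same Trp53 genotype. Clec4g and Stab2 were far lower in the tumours, by 67.5-fold and 10.2-fold, while Stab1 was higher by 1.76-fold. Of the vessel markers, Emcn was 3.58-fold and Pecam1 1.96-fold higher. In limma's fit across all genes (adjusted p under 0.05), 5 of the 10 markers thus changed, 3 of them higher and 2 lower, where 51.0% of all genes tested changed (21.5% higher and 29.5% lower). The median change was -2.01 over the 4 sinusoidal markers and 0.75 over the 6 vessel markers, against -0.22 over all genes. In bulk RNA, fewer cells of a type and less RNA of a gene per cell cannot be told apart.

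Clec4g, the lectin, read -3.55, -1.24, -2.44, -4.32 and -2.16 in the 5 KO tumour mice, against 3.36, 3.48, 2.82 and 3.68 in the 4 KO livers. Every tumour mouse lay below every liver, and the groups were separated by more than their own width. The change was -6.08 ± 0.67 on the log2 scale (SE, limma adjusted p = 1.9e-06). Stab2, the scavenger receptor for hyaluronan, read -2.00, 0.15, -1.81, -0.99 and 1.68 in KO tumour mice, against 2.89, 2.93, 2.27 and 2.93 in KO livers. The groups did not overlap by mouse, although mouse 5 came within 1 log2 unit of the lowest liver. Taken alone, tumour 6 of that mouse read 2.44 and lay above that liver. The change was -3.35 ± 0.64 (limma adjusted p = 0.00035), and the 2 other probes of Stab2 gave -3.09 and -3.57.

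Stab1, the related stabilin that macrophages also make, moved the other way. It read 2.69, 3.0, 2.06, 2.50 and 2.37 in KO tumour mice, against 1.77, 1.92, 1.47 and 1.68 in KO livers. The groups did not overlap, and the change was 0.81 ± 0.23 (limma adjusted p = 0.0063). Of 8 Kupffer cell and macrophage genes, 3 were higher in KO tumours, among them Cd68 (2.46 ± 0.37), and 5 were lower. The part of macrophages in the level of Stab1 was not tested. Lyve1 split the KO tumour mice, at -4.04, -2.65, -2.66, -3.95 and 1.35, against -1.22, -1.48, -1.35 and -2.84 in KO livers. Mouse 5 stood above all livers and mice 1 and 4 below them, and the mean change of -0.67 ± 0.96 did not pass (limma adjusted p = 0.58).

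**Figure D1:**
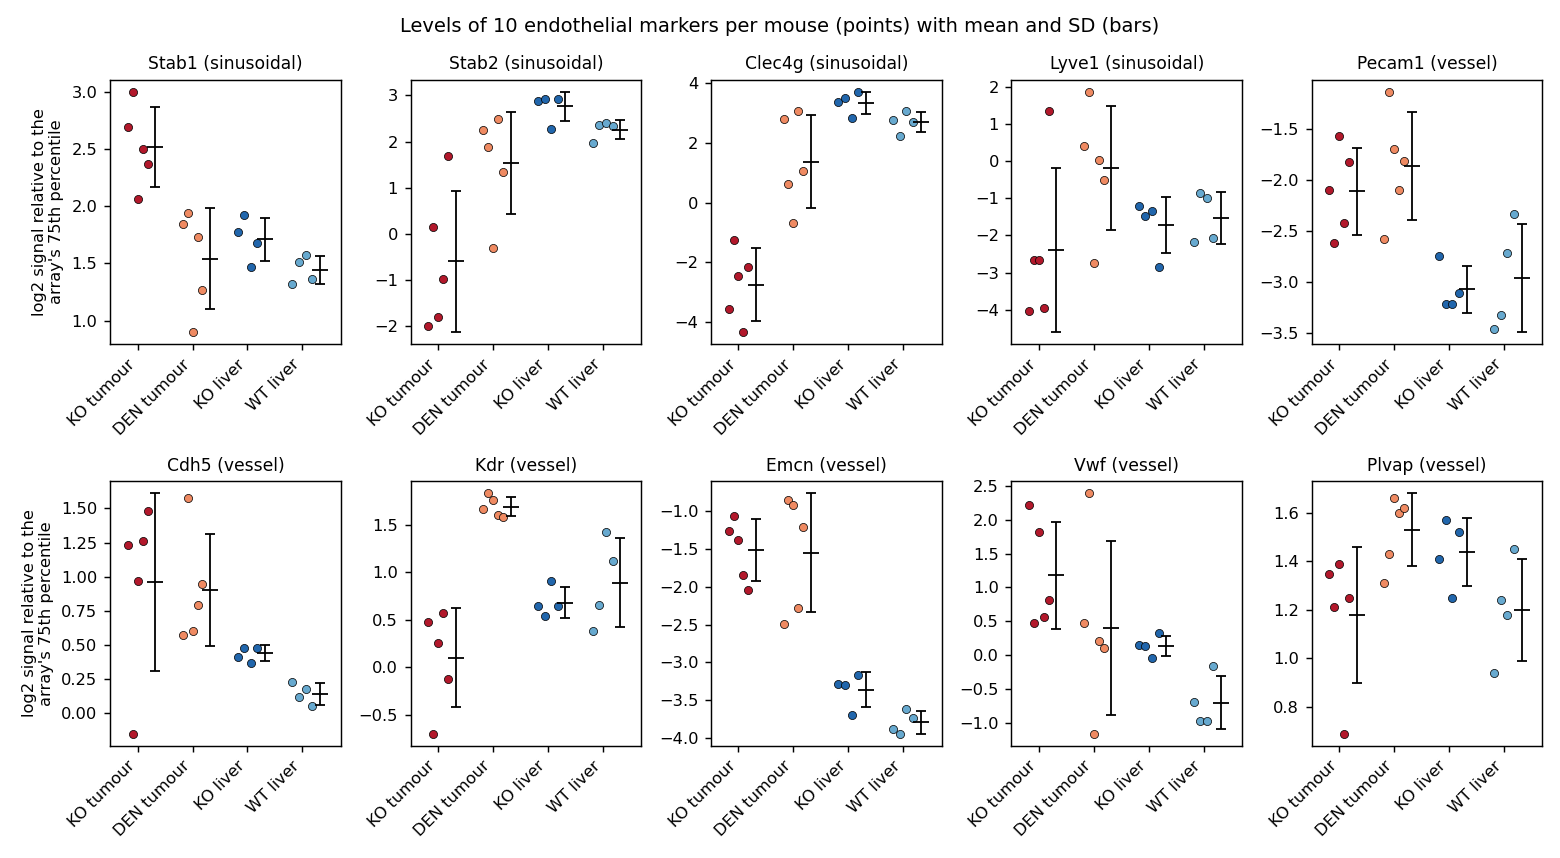
Log2 level of each of the 10 endothelial markers, relative to the array's 75th percentile, in KO tumours, DEN tumours, KO livers and WT livers. Points are mice and bars the mean ± SD, each panel has its own vertical scale, and Clec4g separates KO tumour mice (-4.32 to -1.24) from KO livers (2.82 to 3.68).

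Emcn, the endomucin gene, read -1.27, -1.07, -1.38, -1.85 and -2.04 in KO tumour mice, against -3.29, -3.30, -3.70 and -3.17 in KO livers. All tumour mice lay above all livers. The change was 1.84 ± 0.32 (limma adjusted p = 0.00015), and 0.88 with normexp and quantile scaling (adjusted p = 0.0021). Pecam1 read -2.10, -2.62, -1.56, -2.42 and -1.82 in KO tumour mice, against -2.74, -3.22, -3.22 and -3.11 in KO livers. The groups again did not overlap, with a change of 0.97 ± 0.30 (limma adjusted p = 0.013), and 0.36 with normexp and quantile scaling (adjusted p = 0.049).

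The other 4 vessel markers did not pass in KO tumours against KO livers. Vwf, at 0.47 to 2.22 in KO tumour mice and -0.04 to 0.33 in KO livers, did not overlap by mouse but varied widely among the tumours (1.03 ± 0.52, limma adjusted p = 0.11). Taken alone, KO tumour 5 read 0.32, within the range of the livers. Cdh5 differed by 0.52 ± 0.28 (adjusted p = 0.13) and Plvap by -0.26 ± 0.17 (adjusted p = 0.22), each with overlap. Cdh5 passed without KO tumour mouse 2 (0.80, limma adjusted p = 0.0042) and with normexp and quantile scaling (0.62, adjusted p = 0.049). Kdr differed by -0.58 ± 0.25 (adjusted p = 0.064), but its other probe read -1.81 (adjusted p = 3.1e-05), so the 2 probes of Kdr fall on different sides of the threshold. Kdr also passed without KO tumour mouse 1 (adjusted p = 0.043) or 4 (0.029). Among arrays of the scan day that KO tumours 1 to 3 shared with the KO livers, the changes were -5.75 for Clec4g, -3.98 for Stab2, 0.87 for Stab1, 2.12 for Emcn and 0.98 for Pecam1. Within that day Lyve1 (-1.39, adjusted p = 0.046) and Vwf (1.36, adjusted p = 0.015) also passed, and Kdr (-0.67) passed with scan day as a block (adjusted p = 0.043). When slide was a random block, in a fit with each array as a sample, only Clec4g, Stab2 and Emcn kept their calls among the 10 (adjusted p = 0.0047, 0.048 and 0.0096).

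The sequence before the annotated gene start was in the RefSeq promoter table (build GRCm38.p6) for 5 of the 10 markers. The 250 bases before the start are shown 5′ to 3′ for the 4 of these that changed between KO tumours and KO livers, as 2 that were lower (Clec4g, Stab2) and 2 that were higher (Stab1, Emcn). Capitals mark GGAAG or its complement CTTCC, a form of the site that ETS factors bind. This family includes the endothelial regulators Erg and Fli1. Other matches to the shorter GGAA or TTCC, as in the Stab2 and Clec4g windows, were not marked or counted. The windows lie at chr8:3720652-3720901 (minus strand, Clec4g), chr10:87007943-87008192 (minus, Stab2), chr14:31168642-31168891 (minus, Stab1) and chr3:137340828-137341077 (plus, Emcn).
Clec4g: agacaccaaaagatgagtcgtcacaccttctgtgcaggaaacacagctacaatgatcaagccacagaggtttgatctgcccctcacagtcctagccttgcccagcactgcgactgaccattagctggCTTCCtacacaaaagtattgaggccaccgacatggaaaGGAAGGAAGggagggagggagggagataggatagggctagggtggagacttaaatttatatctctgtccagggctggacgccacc
Stab2: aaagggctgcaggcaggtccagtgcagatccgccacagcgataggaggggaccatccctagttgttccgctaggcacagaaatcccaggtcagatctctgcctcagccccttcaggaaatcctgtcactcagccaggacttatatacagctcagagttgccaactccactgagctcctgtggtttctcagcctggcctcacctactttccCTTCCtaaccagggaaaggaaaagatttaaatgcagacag
Stab1: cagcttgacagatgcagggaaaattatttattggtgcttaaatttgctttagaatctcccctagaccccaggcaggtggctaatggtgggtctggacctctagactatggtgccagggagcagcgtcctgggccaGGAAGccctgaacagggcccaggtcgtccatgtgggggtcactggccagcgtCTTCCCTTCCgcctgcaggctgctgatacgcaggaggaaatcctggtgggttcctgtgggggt
Emcn: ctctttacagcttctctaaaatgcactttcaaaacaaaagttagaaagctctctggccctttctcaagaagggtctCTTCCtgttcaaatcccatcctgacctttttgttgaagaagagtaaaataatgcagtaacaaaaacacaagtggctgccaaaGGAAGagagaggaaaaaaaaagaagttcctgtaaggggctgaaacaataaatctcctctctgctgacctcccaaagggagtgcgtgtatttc
GGAAG on either strand occurred 3 times before Clec4g, where 2 matches share a base, once before Stab2, 3 times before Stab1 and 2 times before Emcn. It occurred in all 5 windows of the markers and in 64.1% of the 32851 windows of the table, so the match is common. AGATAA on either strand, a site of GATA factors, occurred in 0 of the 5 and in 9.99% of all windows. A match in these letters is not a measured binding site.

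**Figure D2:**
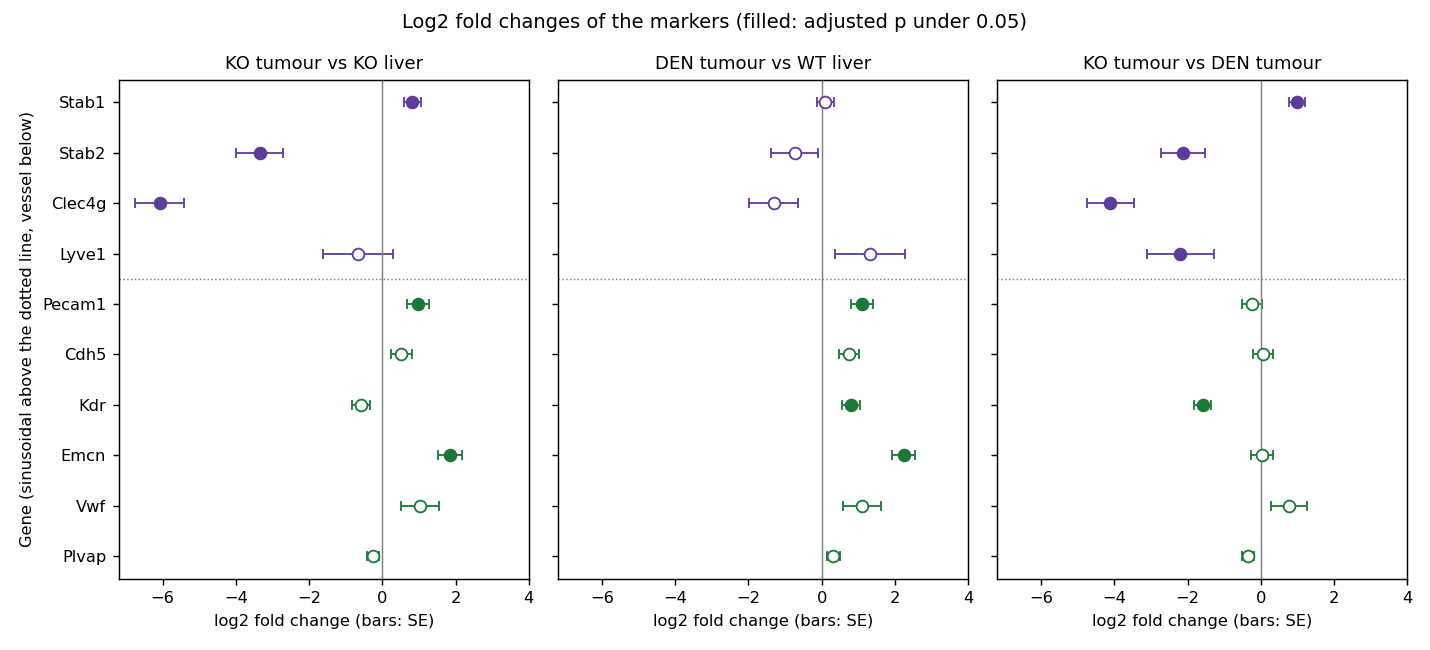
Log2 fold change with its standard error for each marker in KO tumours over KO livers (left), DEN tumours over WT livers (middle) and KO tumours over DEN tumours (right). Filled points passed the adjusted p of 0.05, and Clec4g has the lowest value in the left and right panels (-6.08 and -4.11).

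DEN tumours were set against WT livers to ask the same of tumours and livers of the Trp53 wt genotype. The tumours came from DEN-treated mice and the livers from untreated ones, so tumour and DEN treatment cannot be told apart here. Emcn was 4.72-fold, Pecam1 2.13-fold and Kdr 1.74-fold higher, while none of the 4 sinusoidal markers passed. Thus 3 of the 10 markers changed, all of them higher and 0 lower, where 21.4% of all genes tested changed (10.5% higher and 10.9% lower). The median change was 0.95 over the vessel markers and -0.32 over the sinusoidal ones, against 0.04 over all genes. With slide as a random block only the call of Emcn held (adjusted p = 0.023).

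Emcn read -2.49, -0.85, -0.92, -2.28 and -1.21 in DEN tumour mice, against -3.88, -3.94, -3.61 and -3.74 in WT livers. Every tumour mouse lay above every liver, with a change of 2.24 ± 0.32 (limma adjusted p = 0.00014), and 1.21 with normexp and quantile scaling (adjusted p = 0.00048). Kdr read 1.67, 1.83, 1.76, 1.60 and 1.58 in DEN tumour mice, against 0.38, 0.65, 1.42 and 1.12 in WT livers. The DEN tumour mice lay close together and above all livers, at 0.80 ± 0.25 (limma adjusted p = 0.032). Taken alone, DEN tumour 4 read 1.41, just below the highest liver (1.42). The other probe of Kdr read 0.15 (adjusted p = 0.76), so the call rests on 1 of its 2 probes. It was also lost with normexp and quantile scaling (0.59, adjusted p = 0.059) and by the mean of all probes (0.47, adjusted p = 0.13). Nor did the call hold without DEN tumour mouse 2 (adjusted p = 0.064) or 3 (0.059) or without WT liver mouse 1 (0.12) or 2 (0.099). Pecam1 read -2.58, -1.13, -1.69, -2.10 and -1.81 in DEN tumour mice, against -3.46, -3.32, -2.71 and -2.33 in WT livers. DEN tumour mouse 1 overlapped with the livers, and the change was 1.09 ± 0.30 (limma adjusted p = 0.016), or 0.57 with normexp and quantile scaling (adjusted p = 0.0095). It did not pass without WT liver mouse 1 (adjusted p = 0.063) or 2 (adjusted p = 0.059).

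The SD between mice was 1.56 for Clec4g and 1.11 for Stab2 in DEN tumours, against 0.34 and 0.21 in WT livers. Clec4g read 2.79, 0.63, -0.68, 3.06 and 1.05 in DEN tumour mice, against 2.77, 2.23, 3.05 and 2.68 in WT livers. Stab2 read 2.25, 1.88, -0.31, 2.48 and 1.35 in DEN tumour mice, against 1.96, 2.35, 2.41 and 2.34 in WT livers. Mice 1 and 4 lay within or near the liver range for both genes, and mouse 3 lay lowest for both. Lyve1 read 0.39, 1.86, -2.73, 0.02 and -0.50 in DEN tumour mice, against -2.17, -0.85, -1.0 and -2.08 in WT livers, with mouse 3 again lowest and the groups overlapping. The changes of -1.31 ± 0.67 for Clec4g, -0.73 ± 0.64 for Stab2, 1.33 ± 0.96 for Lyve1 and 0.10 ± 0.23 for Stab1 did not pass (limma adjusted p = 0.19, 0.47, 0.36 and 0.81). Among the remaining vessel markers, Cdh5 differed by 0.75 ± 0.28 without overlap (limma adjusted p = 0.064), and passed with normexp and quantile scaling (0.71, adjusted p = 0.049). Vwf differed by 1.11 ± 0.52 (limma adjusted p = 0.15, and 1.5 with adjusted p = 0.038 without DEN tumour mouse 3) and Plvap by 0.32 ± 0.17 (adjusted p = 0.20).

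KO tumours were then compared with DEN tumours, with the same KO tumours as above. These groups differ in Trp53 genotype, DEN treatment and tissue label together, and the parts of these cannot be told apart. Clec4g was 17.3-fold lower in KO tumours, Lyve1 4.58-fold, Stab2 4.36-fold and Kdr 3.01-fold lower, while Stab1 was 1.98-fold higher. In this comparison 5 of the 10 markers changed, 1 higher and 4 lower, where 57.2% of all genes tested changed (19.8% higher and 37.4% lower). All 4 sinusoidal markers passed (median change -2.16), and of the 6 vessel markers Kdr did by the probes used (median -0.11), against a median of -0.33 over all genes.

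For Clec4g the 5 KO tumour mice (-4.32 to -1.24) all lay below the 5 DEN tumour mice (-0.68 to 3.06), with a change of -4.11 ± 0.64 (limma adjusted p = 6.2e-05). Taken alone, KO tumour 6 of mouse 5 read 0.32 and lay above DEN tumour 3 (-0.68). Kdr read 0.48, -0.70, 0.26, 0.57 and -0.12 in KO tumour mice, against 1.58 to 1.83 in DEN tumour mice. These groups did not overlap either, at -1.59 ± 0.24 (limma adjusted p = 4.6e-05), and the other Kdr probe gave -1.5. Stab1 was higher in all KO tumour mice (2.06 to 3.0) than in all DEN tumour mice (0.90 to 1.94), by 0.99 ± 0.21 (limma adjusted p = 0.00095).

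Stab2 and Lyve1 overlapped between the tumour types. Stab2 ranged over -2.00 to 1.68 in KO tumour mice and -0.31 to 2.48 in DEN tumour mice (-2.13 ± 0.60, limma adjusted p = 0.0068, and 0.11 with slide as a random block). Lyve1 ranged over -4.04 to 1.35 in KO tumour mice and -2.73 to 1.86 in DEN tumour mice. Its change of -2.20 ± 0.91 passed narrowly (limma adjusted p = 0.048) and did not pass in 15 of 23 other settings, among them normexp and quantile scaling (-1.38, adjusted p = 0.11) and slide as a random block (-1.58, adjusted p = 0.39). Emcn (0.03 ± 0.30, adjusted p = 0.94), Cdh5 (0.06 ± 0.26, adjusted p = 0.86), Pecam1 (-0.24 ± 0.28, adjusted p = 0.48), Vwf (0.77 ± 0.49, adjusted p = 0.19, and 1.27 with adjusted p = 0.011 without DEN tumour mouse 2) and Plvap (-0.35 ± 0.16, adjusted p = 0.075) did not pass in limma's fit. The other probe of Plvap read -0.74 (adjusted p = 0.0099) and the mean of its probes -0.54 (adjusted p = 0.02), so its call depends on the probe.

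The scan day shared by KO tumours 1 to 3 and DEN tumours 1, 5 and 7 gave -4.60 for Clec4g, -3.22 for Stab2, -3.12 for Lyve1, -1.67 for Kdr and 0.88 for Stab1, all past the threshold. Within that day Emcn (0.87, limma adjusted p = 0.048) and Vwf (1.15, adjusted p = 0.043) were also higher in KO tumours, whereas over all mice neither passed.

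The change between tumour and liver was compared between KO and DEN tumours by an interaction term, the change in KO tumours over KO livers minus that in DEN tumours over WT livers. It was -4.77 ± 0.95 for Clec4g (limma adjusted p = 0.0018), -2.62 ± 0.91 for Stab2 (adjusted p = 0.038) and -1.38 ± 0.36 for Kdr (adjusted p = 0.0085). The term shares its samples with the comparisons above, so it is not separate evidence. In it, too, genotype, DEN treatment and tissue label cannot be told apart. These 3 of the 10 markers were called, 0 higher and 3 lower, where 30.8% of all genes tested were called (12.6% higher and 18.2% lower). Stab1 (0.72 ± 0.32, adjusted p = 0.097), Plvap (-0.58 ± 0.24, adjusted p = 0.077) and Lyve1 (-2.00 ± 1.36, adjusted p = 0.28, and -2.93 with adjusted p = 0.038 without KO tumour mouse 5) did not pass, and the values of the remaining 4 lay between -0.40 and -0.07. With slide as a random block 0 of the 3 calls held, and the call of Stab2 was lost in 18 of 31 other settings.

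None of the 10 markers passed between KO livers and WT livers, with 0 higher and 0 lower by limma's adjusted p and also 0 at an unadjusted p under 0.05. In that comparison 8.48% of all genes tested were called, 1.83% higher and 6.65% lower. The largest difference was that of Vwf, at 0.85 ± 0.55 (limma adjusted p = 0.39), where KO livers at 0.15, 0.14, -0.04 and 0.33 lay above WT livers at -0.69, -0.98, -0.98 and -0.16. Cdh5 also did not overlap (0.37 to 0.48 in KO livers, 0.05 to 0.23 in WT livers), with a difference of 0.29 ± 0.29 (adjusted p = 0.61). The fit takes 1 spread per gene from all 18 mice, so the SE of a liver difference takes in the spread of the tumours. For Cdh5 the SD was 0.06 in KO livers and 0.08 in WT livers, against 0.65 in KO tumours and 0.41 in DEN tumours.

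Averaged over each set and centred on the 8 livers, the sinusoidal markers stood at -2.17 ± 1.09 in KO tumours and -0.31 ± 1.07 in DEN tumours (SD, n = 5 each). The vessel markers stood at 0.71 ± 0.33 in KO tumours and 0.93 ± 0.41 in DEN tumours. This mean does not describe each vessel marker, since Kdr (-0.58) and Plvap (-0.26) had negative changes in KO tumours over KO livers. Of 18 other pan-endothelial genes, 1 was higher and 10 were lower in that comparison. The sinusoidal mean lay below the vessel mean in all 10 tumour mice, with a difference between -4.16 and -1.23 in KO tumours and between -2.86 and -0.12 in DEN tumours. In livers the difference lay between -0.20 and 0.23 in KO and between -0.44 and 0.24 in WT mice. DEN tumour mice 1 and 4 (-0.12 and -0.26) thus lay within the range of the WT livers. KO tumour mice 1, 3 and 4 were lowest in the sinusoidal mean (-3.10, -2.58 and -3.06), and DEN tumour mouse 3 (-2.07) lay below KO tumour mice 2 and 5 (-1.56 and -0.56).

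**Figure D3:**
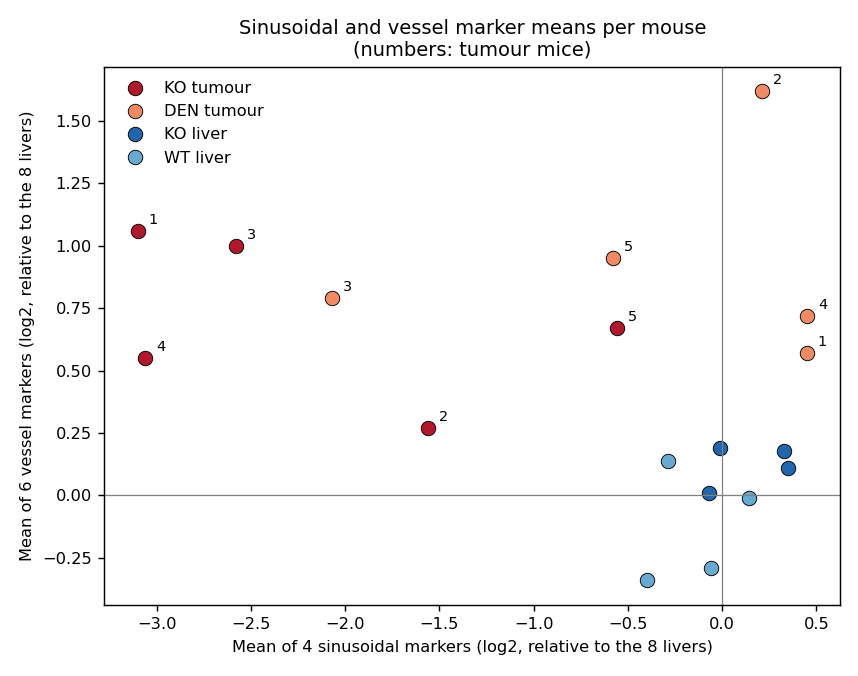
Mean of the 4 sinusoidal markers (horizontal) and of the 6 vessel markers (vertical) in each mouse, in log2 units relative to the mean of the 8 livers, with tumour mice numbered. All 10 tumour mice lie at 0.27 or above on the vessel axis, and the sinusoidal mean lies between -3.10 and -0.56 in KO tumours and between -2.07 and 0.45 in DEN tumours.

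Tumours of the same mouse could differ widely. KO tumour mouse 5 gave 2 tumours (5 and 6), in which Clec4g read -4.64 and 0.32, Lyve1 0.00 and 2.70, and Stab2 0.92 and 2.44. The second tumour was higher in these 3 sinusoidal genes, and also in the vessel markers Cdh5 (0.85 and 2.11) and Vwf (0.32 and 1.32). Stab1 (2.17 and 2.57) and Plvap (1.08 and 1.42) differed by less, as did Emcn (-1.87 and -2.22), Pecam1 (-1.81 and -1.83) and Kdr (-0.08 and -0.16). The 2 tumours were hybridised on the same slide. In the pairs of DEN tumour mice 4 and 5, Clec4g differed by 0.59 and -1.23 and no marker differed by more than 1.23, although the tumours of each pair lay on different slides.

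**Figure D4:**
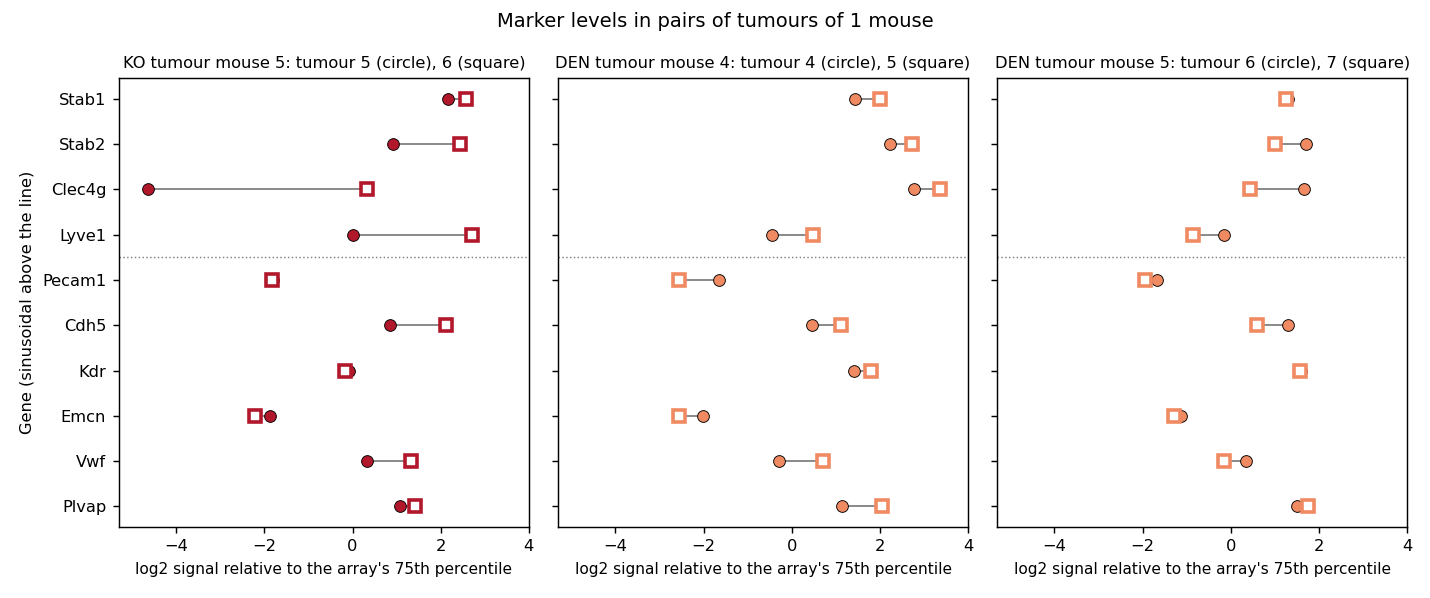
Log2 level of each marker in the 2 tumours of KO tumour mouse 5, DEN tumour mouse 4 and DEN tumour mouse 5, as a circle and a square joined by a line. The longest line is that of Clec4g in KO tumour mouse 5, at -4.64 and 0.32.

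Other genes of the endothelium were taken from lists by role. Over all genes, 21.5% were higher and 29.5% lower in KO tumours against KO livers, 10.5% and 10.9% in DEN tumours against WT livers, 19.8% and 37.4% in KO against DEN tumours, and 12.6% and 18.2% by the interaction term, and the list counts are to be read beside these shares. Of 13 other sinusoidal genes tested, 0 were higher and 10 lower in KO tumours over KO livers (median -1.69). Oit3, a secreted protein of sinusoidal endothelium, changed by -5.18, the chemokine-binding receptor Gpr182 by -3.87, and Ehd3, a protein of endocytic recycling, by -3.85 on the log2 scale (limma adjusted p = 1.3e-05, 1e-05 and 4e-06). In DEN tumours against WT livers 0 of 13 were higher and 2 lower (median -0.61), the Wnt amplifier Rspo3 at -1.83 ± 0.52 and the Wnt ligand Wnt9b at -1.07 ± 0.33. Between tumour types 2 were higher in KO than in DEN tumours, the Fc receptor Fcgr2b (1.46 ± 0.33) and the mannose receptor Mrc1 (1.28 ± 0.40), both of which macrophages also make. Within the shared scan day Mrc1 read 0.68 and did not pass (adjusted p = 0.24). In the same comparison 6 were lower, among them Oit3 (-3.37 ± 0.66) and the lectin receptor Clec1b (-2.75 ± 0.80). The interaction term was called for Oit3 (-4.17 ± 0.99), Gpr182 (-3.53 ± 0.72) and Ehd3 (-2.75 ± 0.65), 0 higher and 3 lower of the 13 beside 18.2% of all genes called lower, and none of them with slide as a random block.

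Of 18 other pan-endothelial genes, 1 was higher and 10 lower in KO tumours against KO livers (median -0.71), and in DEN tumours against WT livers 6 were higher and 1 lower (median 0.35). The chemotaxis regulator Ecscr was the 1 that was higher in KO tumours, by 3.31 ± 0.38, and it was also 1.29 ± 0.38 higher in DEN tumours over WT livers. Ptprb, the phosphatase VE-PTP, fell by 2.63 in KO tumours (limma adjusted p = 4.4e-07), with 2 other probes at -1.59 and -2.64. The sphingosine-1-phosphate receptor S1pr1 was lower at -1.46 ± 0.43, but read -0.88 without the slide of KO tumours 4 to 6 and then did not pass (adjusted p = 0.076). In DEN tumours over WT livers the adhesion molecule Icam2 (1.08 ± 0.28) and the adaptor She (0.96 ± 0.21) were higher, calls that were lost with slide as a random block. The interaction term was called for 7 of 18, 1 higher (Ecscr, 2.02 ± 0.54) and 6 lower. Among the lower were Ptprb (-2.37 ± 0.35, other probes at 0.22 and -1.51), She (-1.91 ± 0.30) and the guidance receptor Robo4 (-1.66 ± 0.29).

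Of the 12 endothelial transcription factors, 4 were higher and 3 lower in KO tumours over KO livers. Lyl1 (2.96 ± 0.42) and the ETS factor Fli1 (1.59 ± 0.35) were higher, and Nr2f2, the venous regulator COUP-TFII, was lower (-1.75 ± 0.22), as was Sox7 (-1.20 ± 0.27). The part of cells other than endothelium in the levels of Lyl1 and Fli1 was not tested. Erg was above background on only 3 of the 6 KO tumour and 2 of the 7 DEN tumour arrays. Tcf15, above background on 0 of the 4 KO liver and 0 of the 4 WT liver arrays, was at least 2.34-fold higher in KO tumours and at least 2.90-fold higher in DEN tumours. These are bounds, since the liver value is replaced by the dimmest signal that counts as well above background. In DEN tumours against WT livers 2 were higher and 1 lower, with Fli1 at 1.35 ± 0.35 and Nr2f2 at -0.91 ± 0.22.

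Of 11 genes of capillaries and angiogenic tip cells, 5 were higher and 1 lower in KO tumours over KO livers (median 1.01), and 6 were higher and 0 lower in DEN tumours than in WT livers (median 1.33). Apln, the tip cell ligand apelin, was above background on 0 of the 8 liver arrays and was at least 13.3-fold higher in KO tumours and at least 11.8-fold higher in DEN tumours. Cd34, a sialomucin of capillaries, rose by 3.98 ± 0.41 (another probe 2.03) and the leukocyte adhesion molecule Vcam1 by 3.32 ± 0.34 (another probe 4.99) in KO tumours over KO livers. In DEN tumours over WT livers the tip cell proteoglycan Esm1 rose by 3.64 ± 0.53 and the Tie2 ligand Angpt2 by 2.89 ± 0.56. Compared directly, KO tumours had 3 of the 11 higher and 7 lower than DEN tumours, with Vcam1 at 2.24 ± 0.32 and Esm1 at -3.49 ± 0.50 (limma adjusted p = 3e-05 and 3.3e-05). The interaction term was called lower for Esm1 (-2.63 ± 0.75) and higher for Vcam1 (1.95 ± 0.48) and the apelin receptor Aplnr (2.26 ± 0.45).

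**Figure D5:**
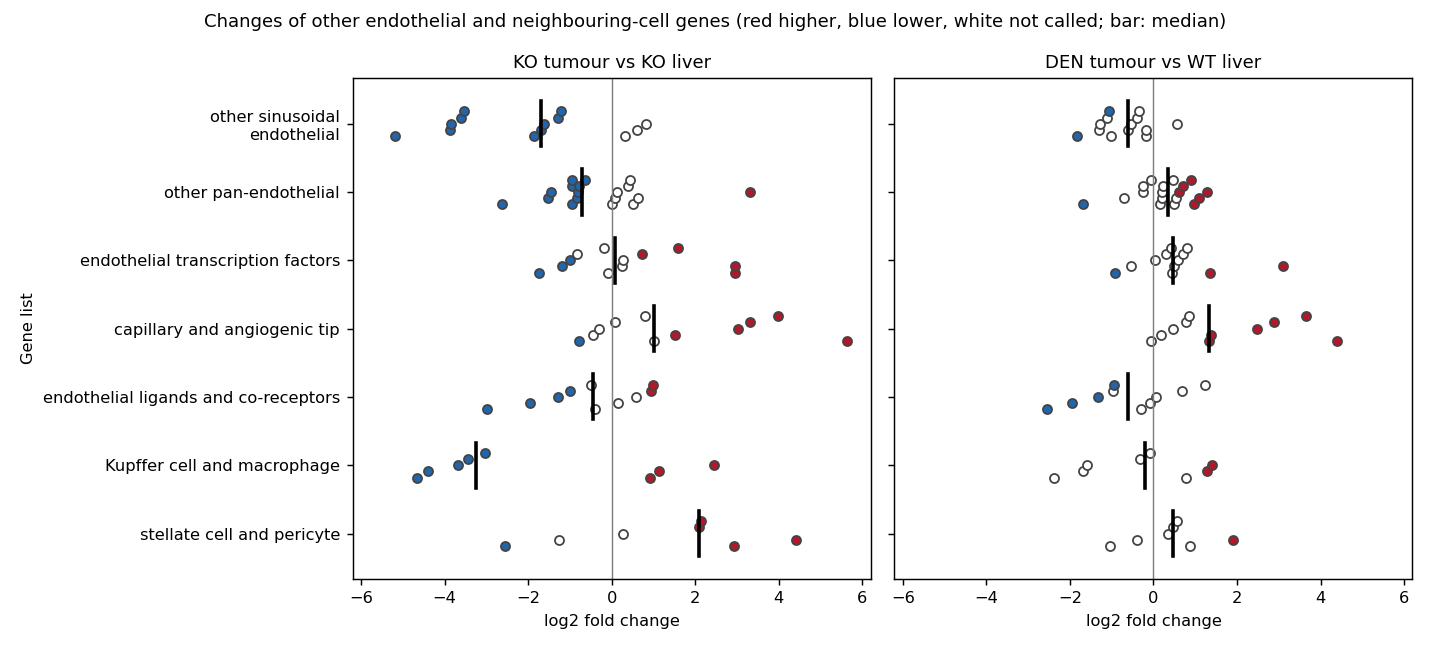
Log2 fold change of each gene in 7 lists of endothelial genes and of neighbouring cells, in KO tumours over KO livers (left) and DEN tumours over WT livers (right). Red points were called higher, blue points lower and white points neither, with the median as a bar, and the other sinusoidal genes have medians of -1.69 and -0.61. For Apln and Tcf15, not above background in livers, the fitted values are shown.

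Among 10 endothelial ligands and co-receptors, 2 were higher and 4 lower in KO tumours over KO livers, and 0 were higher and 4 lower in DEN tumours than in WT livers. Cxcl12, a chemokine, fell in both, at -2.99 and -2.56 on the log2 scale (limma adjusted p = 1.3e-07 and 3.8e-06), with another probe at -1.54 and -1.77. Gdf2, which encodes the endothelial ligand BMP9, read -1.96 in KO tumours and -1.94 in DEN tumours (limma adjusted p = 0.0070 and 0.019). The VEGF family gene Vegfc was higher in KO tumours over KO livers (0.95 ± 0.30) and Vegfb lower (-1.29 ± 0.26). With slide as a random block the calls of Gdf2 and Vegfc did not hold, nor did that of Cxcl12 in DEN tumours.

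Between KO and WT livers 1 gene was higher and 1 lower of the 13 sinusoidal genes, 3 and 1 of the 18 pan-endothelial genes, 1 and 0 of the 12 transcription factors, 0 and 1 of the 11 capillary genes and 2 and 1 of the 10 ligands and co-receptors. Over all genes 1.83% were higher and 6.65% lower. Of the sinusoidal list, Maf was higher (1.64 ± 0.39, another probe at 0.13) and Wnt9b lower (-1.86 ± 0.35, above background on 2 of 4 KO liver arrays) in KO than in WT livers. The pan-endothelial gene She was higher (1.20 ± 0.23). The co-receptor Nrp2 (1.78 ± 0.38) and the Tie2 ligand Angpt1 (1.89 ± 0.53) were also higher in KO livers. Angpt1 did not pass with every array as a sample (adjusted p = 0.11), with normexp and quantile scaling (0.051), or without KO liver mouse 1 (0.066), 2 (0.090), 3 (0.098) or 4 (0.066) or WT liver mouse 3 (0.12) or 4 (0.11). Maf did not pass by the mean of all probes (0.89, adjusted p = 0.17) or without KO liver mouse 4 (0.051) or WT liver mouse 3 (0.054) or 4 (0.053), Nrp2 by the mean of all probes (1.30, adjusted p = 0.067), or Wnt9b with every array as a sample (adjusted p = 0.070). None of these 5 calls held with slide as a random block. In that setting the calls of all list genes named for DEN tumours over WT livers were also lost, as were those of Tcf15, Gp9 and Lrat in KO tumours over KO livers, Clec1b between tumour types, and the interaction terms of Ecscr, Robo4, Esm1, Vcam1 and Aplnr.

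Genes of other cell types changed beside the sinusoidal markers. Of 8 Kupffer cell and macrophage genes, 3 were higher and 5 lower in KO tumours over KO livers. The Kupffer cell genes Clec4f (-4.67 ± 1.18), Cd5l (-4.39 ± 0.99) and Marco (-3.69 ± 1.33) were lower, calls that were lost with slide as a random block, and that of Marco (limma adjusted p = 0.029) also with normexp and quantile scaling (0.094) and without KO tumour mouse 3 (0.076) or 4 (0.071) or KO liver mouse 1 (0.057), 3 (0.071) or 4 (0.052), while the general macrophage gene Cd68 (2.46 ± 0.37) was higher. The mean level of the 8 genes was -1.05 to 3.91 in KO tumour mice and 2.41 to 2.89 in KO livers, and -0.04 to 2.26 in DEN tumour mice and 1.59 to 2.15 in WT livers. KO tumour mouse 5, highest of its group in the sinusoidal mean, was also highest here (3.91). DEN tumour mouse 3, lowest of its group in the sinusoidal mean, was lowest here (-0.04). KO tumour mouse 1, lowest of its group in the sinusoidal mean, read 0.31 here, above mice 3 (-0.72) and 4 (-1.05). Over the platelet genes KO tumour mouse 5 was again highest (-1.16) and DEN tumour mouse 3 lowest (-2.55). Over the erythroid genes KO tumour mouse 5 was highest (1.69), but DEN tumour mouse 3 (3.08) was not lowest. The part of these cell types in the sinusoidal result was not tested.

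Hepatocyte markers were lower in KO tumours than in KO livers (6 of 6) and biliary markers higher (5 of 5), as were 4 of 7 stellate cell and pericyte genes, with 1 lower. The pericyte gene Rgs5 was higher by 4.41 ± 0.38 and Lrat, an enzyme of quiescent stellate cells, was lower (-2.55 ± 0.68). Of 4 erythroid genes, 3 were lower in KO tumours than in KO livers and 3 higher in DEN tumours over WT livers, with mean levels of -1.42 to 1.69 in KO tumours, 2.71 to 4.81 in DEN tumours, 1.08 to 3.44 in KO livers, and in WT livers 1.22 to 2.69. Of 3 lymphatic genes tested, 1 was called. Pdpn, which lymphatic endothelium and other cells make, was higher in KO tumours by 7.68 ± 0.83 than in KO livers and by 7.12 ± 0.78 than in DEN tumours, with another probe at 3.35 and 3.30. It was above background on 2 of the 4 KO liver arrays. Of 6 platelet genes, 1 was higher and 2 lower in KO tumours over KO livers, with Pf4 at 2.88 ± 0.51 and Gp9 at -3.03 ± 0.81. Gp9 was above background on 3 of the 6 KO tumour and 3 of the 4 KO liver arrays. Whether blood content or these cells contributed to the marker levels was not tested.

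The genes whose pattern over the 18 mice was most like that of the markers were found among 12007 named genes that were above background on 18 or more arrays. Likeness was the root-mean-square difference between centred log2 profiles, given as a description. It was not scaled to the size of a gene's changes, so genes that vary little also lie near each other. For the sinusoidal mean profile, which had an SD of 1.22 over mice, the nearest included Adgrg3 (0.47), Tmem132e (0.60), Adam23 (0.64) and Gpr182 (0.64). For the vessel mean profile, with an SD of 0.52, they were Rbm12b1 (0.24), Ptpn12 (0.25), Lims1 (0.25), Baz1a (0.27) and Ccdc43 (0.27). Among the 10 markers themselves the closest pair was Pecam1 with Cdh5 (0.47), and the farthest was Clec4g with Emcn (3.46). Stab1 lay nearer to Cdh5 (0.60) than to the other sinusoidal markers (1.77 to 2.93), whereas Stab2 lay nearest to Clec4g (1.34). Group means lay between 1.44 and 2.52 for Stab1 and between -2.74 and 3.33 for Clec4g. Nearness of Stab1 to Cdh5 thus does not show a shared pattern.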

How the data were processed

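RNA of 21 mouse samples was labelled with Cy3 and read on single-channel Agilent 4x44K v2 arrays, with 44397 spots each. The deposited scanner files give the processed intensity of each spot, which Agilent Feature Extraction 10.7.3.1 wrote, per the file headers and the submitters' processing notes. The authors' value table holds log2 values centred per probe. They were set against the log2 intensity minus the array's 75th percentile, with each probe's median over the arrays also subtracted. The median absolute difference of an array was at most 0.0129. Column medians of the table lay between -0.568 and 0.296, and the table served as an alternative.

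For this work, outlier-flagged spots were dropped, spots of a probe averaged, log2 taken and the 75th percentile over 39429 non-control probes subtracted. Of these, 30437 probes well above background on at least 4 arrays were kept, and the probe of highest mean stood for each of 23736 genes. Tumours of a mouse, read from the sample titles, were averaged, which gave 18 mice. All groups entered 1 fit in R 4.3.3 with data.table (version 1.17.8) and limma 3.58.1 (lmFit, eBayes), two-sided, with Benjamini-Hochberg adjustment over all genes and a threshold of 0.05. Python 3.11.15 with numpy 2.4.6, pandas 2.3.3 and matplotlib 3.10.9 read the promoters and drew the plots. The fit was tested on simulated data. The number of arrays limits the precision. P-values of this fit measure the spread between these mice, taken for each gene over all groups together.

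The 10 members and the gene lists were chosen with earlier results of these data known. From each list, up to 3 higher and 3 lower genes of largest change past the threshold were named in each comparison, and the 5 genes of nearest pattern for each marker set, of which 1 is not reported here. Probe names were updated through RefSeq (GRCm38.p6, names only). Of 87 named values, 22 had other probes and 3 of these had an opposite sign. Alternatives changed the scaling, the filter, the probe, the values used, the slide and scan day as blocks, and the mice included. Fits with slide or scan day as a block took each array as a sample. In these, tumours of 1 mouse counted separately, so they differ from the main fit in unit as well as in the block.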

Additional observations from a re-analysis of the deposited data

Results flagged for a closer look

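In 5 of 40 marker and group combinations, 1 mouse lay apart from the others by Dixon's criterion, where chance gives about 1 in 20. Lyve1 read 1.35 in KO tumour mouse 5, against -4.04 to -2.65 in the other KO tumour mice. Plvap read 0.69 in KO tumour mouse 4, against 1.21 to 1.39 in the others. Lyve1 read -2.84 in KO liver mouse 4 (others -1.48 to -1.22), and Stab2 read 2.27 in KO liver mouse 3 (others 2.89 to 2.93) and 1.96 in WT liver mouse 1 (others 2.34 to 2.41).

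The change between tumour and liver differed between KO and DEN tumours by the interaction term for Clec4g (-4.77), Stab2 (-2.62) and Kdr (-1.38).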

How the results depend on the processing

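Clec4g, Stab2 and Emcn kept their calls between KO tumours and KO livers in every setting run, with changes between -6.57 and -4.68, between -3.98 and -2.66 and between 0.88 and 2.12. Between the tumour types Clec4g, Kdr and Stab1 did so. With slide as a random block the number of markers higher was 1 in place of 3 for KO tumours over KO livers and 1 in place of 3 for DEN tumours over WT livers, the number lower was 2 in place of 4 for KO over DEN tumours, and the number lower by the interaction term was 0 in place of 3. For KO over DEN tumours the number higher was 2 with scan day as a block and 3 within the shared day, in place of 1. With normexp and quantile scaling 1 marker (Stab1) was higher by the interaction term, in place of 0. The cause was not tested. With each mouse left out in turn, the numbers higher and lower were 3 to 4 and 2 to 3 for KO tumours over KO livers, 1 to 3 and 0 for DEN tumours over WT livers (1 without WT liver mouse 1 or 2), 1 to 2 and 3 to 4 for KO over DEN tumours (2 higher without DEN tumour mouse 2), 0 and 2 to 4 for the interaction term, and 0 and 0 for livers.

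Most signs turned for values that had not passed. Called values turned for Bmp10, Ptprb and Myct1. Bmp10 is an endothelial ligand that was lower in KO than in DEN tumours (-1.81). By another probe, Ptprb turned between tumours (-1.77, other probes 0.07 and -0.99) and in the interaction term (-2.37, other probes 0.22 and -1.51). Myct1, a pan-endothelial gene, did so in DEN tumours over WT livers (-1.69, other probe 0.05). The bright slide is that of KO tumours 4 to 6. For KO over DEN tumours, Bmp10 read 0.06, Cdh5 -0.08 and Pecam1 0.26 with scan day as a block and within the shared day, Cdh5 read -0.21 without the bright slide and -0.07 with tumour 5 alone for KO tumour mouse 5, and Emcn read -0.01 with tumour 6 alone, 0.00 with every array as a sample and -0.04 with normexp and quantile scaling. For livers, normexp and quantile scaling gave 0.04 for Lyve1, 0.09 for Pecam1, -0.06 for Plvap and -0.05 for Stab1, the mean of all probes gave 0.13 for Kdr and -0.10 for Plvap, and another probe gave 0.47 for Kdr, -0.44 for Plvap and -0.07 for Stab2. The interaction term of Vwf read 0.03 with tumour 6 alone and with scaling on the median, 0.42 with the mean of probes, 0.90 with another probe, 0.11 with normexp and quantile scaling and 0.25 without the bright slide. With mice left out, the lowest and highest values were 0.00 and 0.25 for Stab1 in DEN tumours over WT livers, -0.41 and 0.18 for Lyve1 and -0.29 and 0.09 for Pecam1 between livers, -0.07 and 0.34 for Cdh5 and -0.21 and 0.20 for Emcn between tumours, and -0.36 and 0.05 for Cdh5, -0.34 and 0.06 for Pecam1 and -0.46 and 0.42 for Vwf in the interaction term.

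Over all genes, slide as a random block left 2867 higher and 3816 lower in KO tumours over KO livers (against 5107 and 6991), 298 and 124 in DEN tumours over WT livers (2501 and 2590), 2916 higher in KO over DEN tumours (4702), 7 and 4 between livers (434 and 1579) and 319 and 480 for the interaction term (3000 and 4321). Without a filter 11529 were lower in KO tumours over KO livers. Between livers 1050 were lower with every array as a sample, and 861 higher without the bright slide. With KO liver mouse 1, 2, 3 or 4 or WT liver mouse 3 or 4 left out, 150 to 234 were higher and 509 to 868 lower between livers. The share of calls that were lower was 49.0% with normexp and quantile scaling against 57.8% in KO tumours over KO livers, 52.9% against 65.4% between tumours, 65.6% against 78.4% between livers and 48.4% against 59.0% for the interaction term. The median of all genes was then -0.02 in place of -0.22 for KO tumours over KO livers and -0.04 in place of -0.33 between tumours. The settings without the bright slide, by single tumours of KO tumour mouse 5 and by other probes were added after seeing the data. Leaving out the KO tumour arrays brighter than every array of the other groups gave no value, since all 6 were. Scan day could not be fitted as a block where WT livers enter. No paired analysis was possible because nothing in the labels ties a tumour to a liver.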
